A study of Mus musculus with 12 samples.

Results

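Bone morphogenetic protein (BMP) signalling was followed in 10 genes across 4 populations of mouse liver cells sorted by a Sox9 reporter. The genes were the ligands Bmp2, Bmp4 and Bmp6, the receptors Bmpr2 and Acvrl1, the inhibitory SMADs Smad6 and Smad7, and the ID genes Id1, Id2 and Id3. They were taken by symbol from 54227 gene symbols, by a rule that sets no condition on their values, and all 10 passed the filter on low values. The cells came from the livers of C57Bl/6 mice with the Sox9EGFP transgene, an EGFP reporter of Sox9 that all 4 populations carry. The mice were fasted for 16 h before digestion, and the labels used here give no age. Cells were gated on EGFP as negative, sublow, low and high (neg, sub, low and high below), and each library was made from 12000 sorted cells, with 3 libraries per population and 12 in all. Nothing in the labels says whether the libraries of a population came from separate animals. Libraries with the same replicate number also share a tag in their column names across the 4 gates, and what the tag marks is not given in the sources used here. The p-values therefore measure the spread between these samples, which may be technical. The gates mark EGFP brightness and not a purified cell type.

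BMPs are secreted ligands that bind a complex of type I and type II serine/threonine kinase receptors. The type I receptor phosphorylates SMAD1, SMAD5 and SMAD9, which enter the nucleus with SMAD4 and activate targets that include the ID genes, Smad6 and Smad7. ID proteins lack a DNA-binding domain and hold basic helix-loop-helix factors away from DNA, while SMAD6 and SMAD7 shut the receptor signal down. In the liver, sinusoidal endothelial cells are a known source of BMP2 and BMP6, which act on hepatocytes to set expression of the iron hormone hepcidin.

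The values are the normalised counts deposited by the authors, that is, read counts divided by 1 factor per library. Depth lay between 8775387 and 15535588 recovered reads, and 1 read was worth 0.691 to 1.22 normalised counts. Summed endothelial markers (10 genes) ranged from 92598 to 128628 normalised counts in neg, 28406 to 36017 in sub, 604 to 2071 in low and 548 to 1065 in high. Lyve1 and Gpr182 were at 0 in all low libraries and Oit3 in all high libraries. Summed stellate and mesenchymal markers (10 genes) ranged from 18098 to 33380.4 in neg, 24213 to 34041 in sub, 635 to 2491 in low and 490.0 to 1937 in high, with Lrat at 0 in low and high. Biliary markers (10 genes) summed to 21.2 to 412 in neg, where Epcam, Spp1, Pkhd1 and Cftr were at 0, against 19769.6 to 36031 in sub, 66815 to 91812 in low and 62648 to 68507 in high. Hepatocyte markers (10 genes) summed to 395 to 1032 in neg and to 20048 to 24967 in high. Kupffer cell markers reached at most 1288 and lymphocyte markers at most 1142 in any library. Sums of 10 immediate early genes, which respond to tissue dissociation, ranged from 91204 to 103544 in neg and from 237585 to 259536 in high. In bulk libraries fewer cells of a type and less RNA per cell cannot be told apart.

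Of the 10 genes, Bmp2 and Bmpr2 passed the test among the populations. Bmp2 was lower in high than in neg, with a log2 fold change of -10.44 ± 2.0 (SE) on the log2(normalised count + 1) scale. Bmpr2 was lower in low and high than in neg, at -2.31 ± 0.45 and -1.86 ± 0.45, and lower in low than in sub, at -2.08 ± 0.45. The 3 high libraries held more Id2 than every other library, but no contrast of an ID gene passed the threshold of limma's test (adjusted p under 0.05, two-sided, 3 libraries per population).

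**Figure D1:**
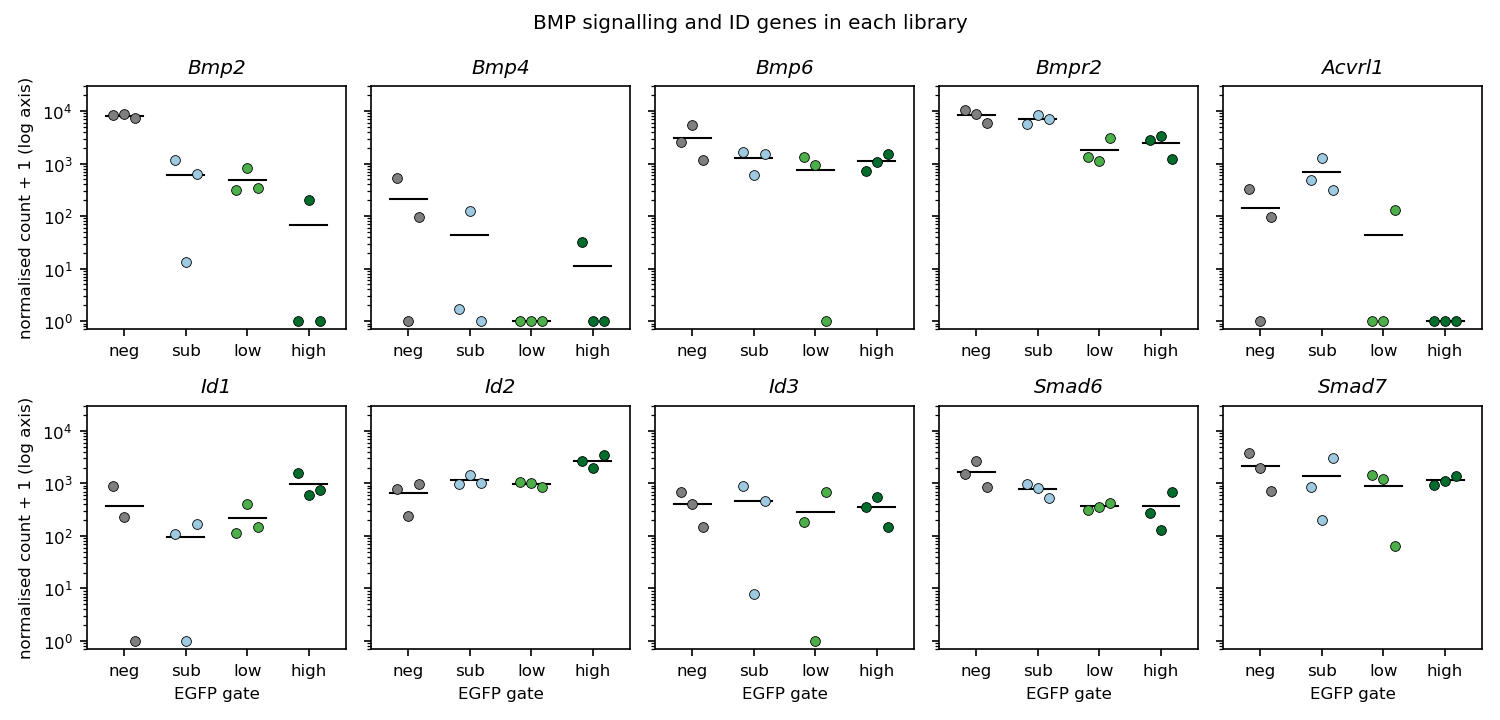
Normalised count + 1 of each of the 10 BMP and ID genes on a log axis, by EGFP gate, with 1 point per library (3 per gate) and a bar at the mean of the 3 normalised counts + 1. Bmp2 lies between 7370.1 and 8605 in the neg libraries and at 0 in 2 of the 3 high libraries, and Id2 is highest in the 3 high libraries, between 2007 and 3509.

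Bmp2, a ligand made by liver endothelial cells, lies on the plus strand of chromosome 2 (chr2:133552159-133562885, GRCm38, GENCODE M21). Its normalised counts were 8476, 8605 and 7370.1 in neg replicates 1, 2 and 3. They were 1192, 12.6 and 626 in sub, 316, 829 and 335 in low, and 0, 200.1 and 0 in high. Every neg library was thus above every EGFP-positive library, and the high libraries were below all low ones. The neg libraries varied by 679 (SD) around a mean of 8150.3, while in sub the SD of 589.7 was close to the mean of 610.2. High differed from neg with an adjusted p of 0.00360 (limma, Benjamini-Hochberg), and the mean was 122-fold lower in high. That mean rests on high 2, since the other high libraries were at 0, and the log2 fold change was -12.99 without high 2 and -9.16 without high 1 or without high 3. For sub against neg the log2 fold change was -5.23 ± 2.0 (adjusted p = 0.356), for low against neg -4.19 ± 2.0 (0.311, and 0.0299 to 0.481 over the alternatives, the lowest in a fit of those 2 populations alone) and for high against low -6.25 ± 2.0 (adjusted p = 1). Leaving out 1 library gave -6.46 (without sub 1) to -3.23 (without sub 2) for sub against neg and -8.80 (without high 2) to -4.97 (without high 1 or high 3) for high against low. The F test over the 4 populations gave an adjusted p of 0.0197. That F call was lost without any 1 of the neg libraries, high 1 or high 3 (adjusted p 0.0791 to 0.0990). High against neg kept its call without any 1 library and lost it in a fit of those 2 populations alone (0.0976).

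The means of Bmp2 and of the summed endothelial markers had the same order, neg above sub, low and high. The marker sums were 28406 to 36017 in sub and 604 to 2071 in low, where Bmp2 had overlapping values of 12.6 to 1192 in sub and 316 to 829 in low. The part of endothelial cell content in the Bmp2 difference was not tested.

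Bmp6, the second of the endothelial ligands, spans chr13:38345107-38500302 on the plus strand. It had normalised counts of 2599, 5317 and 1178 in neg, and 1668, 593 and 1505 in sub. In low they were 1333, 953 and 0, and in high 716, 1061 and 1543. The 4 populations overlapped, and low 3 was the only library at 0. Low against neg gave a log2 fold change of -4.55 ± 1.80 (limma adjusted p = 0.196), or -1.17 without low 3, the library at 0 (adjusted p = 0.565, with 0.0877 the lowest when another library was left out), and the F test gave an adjusted p of 0.465. Txndc5 and the antisense gene 4930579J19Rik overlap Bmp6 on the other strand. Whether the authors' counting used strand is not given in the sources used here, so reads could be shared between them.

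Bmp4, a ligand of mesenchymal cells in many tissues, lies on the minus strand at chr14:46383520-46390669, where Gm15217 and Gm15222 overlap it on the other strand. Normalised counts of Bmp4 were 540.3, 0 and 94.6 in neg, 0.737, 125 and 0 in sub, 0 in all 3 low libraries, and 31.2, 0 and 0 in high. Single libraries within a population ranged from 0 to 540.3 normalised counts in neg and from 0 to 125 in sub, so the groups were not separated. The adjusted p ranged from 0.350 to 1 over the 6 contrasts.

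Set per kilobase of merged exon, which allows levels of different genes to be compared, Bmp2 was the most abundant of the 3 ligands in neg and the order changed in high. In neg, Bmp2 had 2073 to 2420.5 normalised counts per kb, Bmp6 302 to 1363 and Bmp4 0 to 240.3, with no overlap between the ligands. In high, Bmp6 had 183 to 396 per kb, Bmp2 0 to 56.3 and Bmp4 0 to 13.9, so that Bmp6 stood above Bmp2 while Bmp2 and Bmp4 overlapped. In low, Bmp2 (88.9 to 233 per kb) and Bmp6 (0 to 342 per kb) overlapped, as they did in sub (3.54 to 335 and 152 to 428 per kb). These levels are divided by the total annotated exon length and not by the length of the transcripts in use.

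Bmpr2, the type II receptor for BMPs, spans chr1:59763400-59879014 on the plus strand. In normalised counts, Bmpr2 had 10613, 8961 and 5816 in neg and 5593, 8447 and 7187 in sub. They were 1353, 1103 and 3031 in low and 2769, 3386 and 1245 in high. All 6 libraries of low and high were below all 6 of neg and sub, while neg and sub overlapped, as did low and high. Bmpr2 was lower in low than in neg (4.63-fold on the means, limma adjusted p = 0.00487), in high than in neg (3.43-fold, adjusted p = 0.0216) and in low than in sub (3.87-fold, adjusted p = 0.0397). High against sub gave a log2 fold change of -1.62 ± 0.45 with an adjusted p of 0.114. The log2 difference was -0.23 ± 0.45 between sub and neg (adjusted p = 0.936) and 0.46 ± 0.45 between high and low (adjusted p = 1). The F test gave an adjusted p of 0.00486. The low-against-sub call was the least stable. It was lost without any 1 library other than low 3, high 2 or high 3, with adjusted p from 0.0547 to 0.162, and with the replicate number as a block (0.0510). The call of high against neg was lost without neg 1 (adjusted p = 0.0950), neg 2 (0.0767) or high 3 (0.119). It was also lost without a filter (0.0623) and with edgeR (0.0501). Without a variance trend every Bmpr2 call was lost. Adjusted p was then 0.509 for low against sub, 0.277 for low against neg, 0.396 for high against neg and 0.433 for the F test. Fits of only the 2 populations compared gave 0.361, 0.120 and 0.131 for these contrasts in the same order.

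Bmpr2 separated neg and sub from low and high. Between sub and low the summed stellate and mesenchymal markers went from 24213 to 34041 down to 635 to 2491 normalised counts and the endothelial sums from 28406 to 36017 down to 604 to 2071. Within neg the library with the lowest Bmpr2, replicate 3 at 5816, had the highest mesenchymal sum (33380.4) and the lowest endothelial sum (92598). Replicate 2 had the highest endothelial sum (128628, against 110995 in replicate 1) but less Bmpr2 than replicate 1 (8961 against 10613). The part of either cell content in the Bmpr2 difference was not tested.

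Acvrl1, a type I receptor of endothelial cells also known as ALK1, lies at chr15:101128522-101145336 on the plus strand. It had normalised counts of 326, 0 and 93.7 in neg and 486, 1264 and 313 in sub. In low they were 0, 0 and 129, and all 3 high libraries were at 0. The sub libraries were above all low and high libraries but overlapped neg, and its mean was highest in sub while the summed endothelial markers were highest in neg. The log2 fold change was 4.20 ± 2.75 for sub against neg (adjusted p = 0.703), -6.83 ± 2.75 for low against sub (0.371) and -9.18 ± 2.75 for high against sub (adjusted p = 0.145, limma). Leaving out 1 library gave 1.72 (without neg 2) to 5.89 (without neg 1) for sub against neg and -9.18 (without low 3) to -5.66 (without low 1 or low 2) for low against sub. DESeq2 on the recovered reads gave an adjusted p of 0.000805 for high against sub, where the other alternatives gave up to 0.308. The antisense gene Gm16031 overlaps Acvrl1, so the limit on strand given for Bmp6 applies. Per kilobase, Bmpr2 exceeded Acvrl1 in every population, with 311 to 469.7 against 73.4 to 296 normalised counts per kb in sub, where they were closest.

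**Figure D2:**
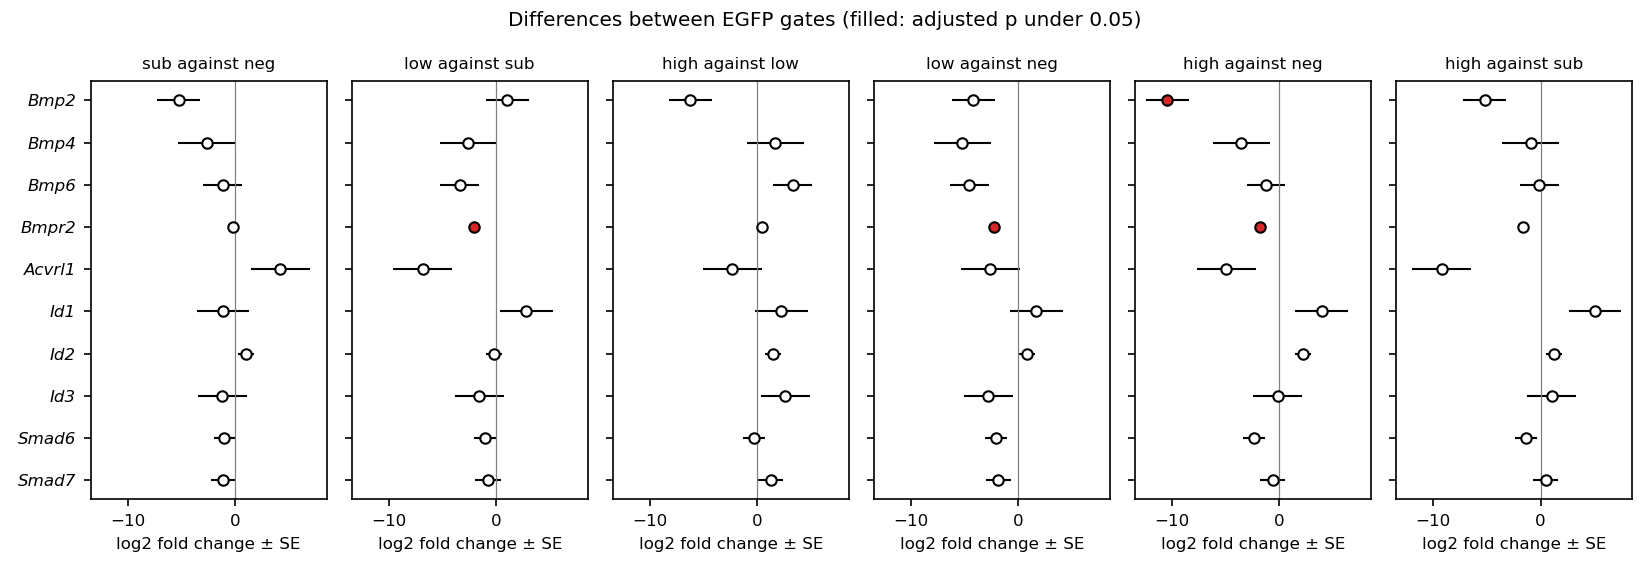
Log2 fold change (log2(normalised count + 1) scale) of the 10 genes in the 6 pairwise contrasts of EGFP gates, with SE as error bars from the limma fit to 12 libraries and filled points where the adjusted p is under 0.05. The filled points are Bmp2 in high against neg at -10.44 and Bmpr2 in low against sub, low against neg and high against neg, between -1.86 and -2.31.

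Smad6, an inhibitor of BMP receptor signalling and itself a BMP target, spans chr9:63953076-64022059 on the minus strand. Its normalised counts were 1539, 2621 and 840.3 in neg and 974, 813 and 529.7 in sub. They were 309, 356 and 425 in low and 278, 127 and 691 in high. All neg libraries were above all low and high libraries, sub was above low, and sub overlapped neg and high. High against neg gave a log2 fold change of -2.37 ± 1.01 (limma adjusted p = 0.237) and low against neg -2.06 ± 1.01 (0.331), and neither passed. Leaving out 1 library gave -2.99 to -1.77 for high against neg and -2.48 to -1.66 for low against neg. DESeq2 on the recovered reads gave adjusted p of 0.0290 for high against neg and 0.0273 for low against neg, and the other alternatives gave up to 0.482 and 0.522.

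The bases before the annotated start of Smad6 are shown because BMP targets are known for GC-rich SMAD-binding letters near their starts. The letters searched on both strands were GGCGCC, a GC-rich SMAD element, then its variant GGAGCC, and the SMAD-binding box GTCTG, and matches of different motifs did not overlap in the windows shown. Sequences are from RefSeq (GRCm38.p6), 5′ to 3′ on the gene's strand, and capitals mark matches, CAGAC being GTCTG read on the other strand. The window of Smad6 is chr9:64022060-64022309 on the minus strand.
Smad6: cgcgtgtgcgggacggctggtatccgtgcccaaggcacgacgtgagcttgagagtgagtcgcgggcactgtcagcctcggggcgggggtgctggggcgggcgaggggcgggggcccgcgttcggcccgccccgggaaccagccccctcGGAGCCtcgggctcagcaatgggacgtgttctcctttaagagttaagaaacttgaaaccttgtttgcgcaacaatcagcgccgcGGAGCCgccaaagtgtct
GGAGCC occurs 102 and 18 bases before the start, and the other letters were not in this window. Of 32851 promoter windows of 250 bases, 26.0% hold GGAGCC, 9.59% GGCGCC and 42.2% GTCTG, which gives the background for these matches. The promoter table held 6 of the 10 genes, and only the windows of Smad6 and Id2 among them are shown with their matches. Windows of Bmp4, Bmp6, Bmpr2 and Id3 were not looked at one by one.

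Smad7, which blocks both BMP and TGF-beta receptors, had a wide spread within neg, sub and low. Normalised counts of Smad7 were 3837, 2007 and 707 in neg, 856, 204 and 3089 in sub, 1435, 1220.1 and 63.3 in low, and 950.1, 1098 and 1409 in high. Its populations overlapped in every pair, and the adjusted p ranged from 0.483 to 1 (limma). Low 3, the library at 0 for Bmp6, was also the lowest for Smad7. Per kilobase the 2 inhibitors overlapped in neg, where Smad6 had 262 to 818 normalised counts per kb and Smad7 156 to 849.

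Id2, a dominant-negative partner of helix-loop-helix factors and a direct BMP target, lies on the minus strand at chr12:25093799-25097140. In normalised counts, Id2 had 797, 235 and 975 in neg, 993, 1452 and 1014 in sub, 1085, 1006 and 856 in low, and 2641, 2007 and 3509 in high. Every high library was above the other 9 libraries. Every sub library was also above every neg library, by a narrow margin of 993 against 975. The mean was 2719 ± 754 (SD, n = 3) in high and 669 ± 387 in neg, 4.06-fold apart. The log2 fold change of high against neg was 2.22 ± 0.74 with an adjusted p of 0.10 (limma). It was 1.22 ± 0.74 against sub (adjusted p = 0.617) and 1.44 ± 0.74 against low (adjusted p = 1). DESeq2 on the recovered reads gave an adjusted p of 0.00834 for high against neg, and the highest over the alternatives was 0.288 with edgeR. Without neg 2, the lowest library, this log2 fold change was 1.59.

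The sums of the immediate early genes were, like Id2, lowest in neg and highest in high by their means. They were 213874 to 238250.2 in low and 237585 to 259536 in high, where Id2 did not overlap. Between sub (150131 to 178333) and low the immediate early sums did not overlap, while Id2 was 993 to 1452 in sub and 856 to 1085 in low. The part of dissociation in the Id2 values was not tested.

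For Id2 the 89 bases of the 250-base window before its RefSeq start that lie outside annotated exons are shown (chr12:25096254-25096342, minus strand), with a GGCGCC match in capitals. GENCODE M21 also holds a longer Id2 transcript that starts further upstream, at position 25097140, and these bases lie within an intron of that transcript.
Id2: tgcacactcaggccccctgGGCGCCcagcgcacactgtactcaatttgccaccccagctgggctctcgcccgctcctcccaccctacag
The match lies 231 bases before the RefSeq start and thus inside the gene as GENCODE M21 gives it. Among windows of 89 bases, 2.73% of promoters hold GGCGCC.

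Id1, the ID gene most used as a readout of BMP signalling, occupies chr2:152736251-152737410 on the plus strand. Its normalised counts were 875, 229 and 0 in neg, 109, 0 and 169.6 in sub, 111, 398 and 149 in low, and 1603, 592 and 742 in high. The high libraries were above all sub and low libraries but overlapped neg, where replicate 1 held more than high 2 and high 3. High against sub gave a log2 fold change of 5.07 ± 2.44 (limma adjusted p = 0.489) and high against low 2.24 ± 2.44 (adjusted p = 1), so neither passed. Leaving out 1 library gave 2.70 (without sub 2, at 0) to 6.41 for high against sub.

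Id3 lies at chr4:136143497-136145755 on the plus strand. It had normalised counts of 670.2, 405 and 149.7 in neg, 901, 6.87 and 462 in sub, 181, 0 and 685 in low, and 355, 545 and 146 in high. Its 4 populations overlapped in every pair, and its adjusted p ranged from 0.593 to 1. Within high, Id2 (823 to 1439 normalised counts per kb) and Id1 (511 to 1382) overlapped, and both lay above Id3 (81.6 to 304). In sub, Id2 (407 to 595 per kb) lay above Id1 (0 to 146), while Id3 (3.84 to 503) overlapped both.

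Counted over the 10 genes, 2 passed in high against neg, both lower, where 4.69% of the 16128 tested genes passed and 2.25% were lower. In low against neg 1 of 10, Bmpr2, passed and was lower, where 4.69% passed and 2.15% were lower. In low against sub 1 of 10, Bmpr2 again, passed and was lower, beside 0.744% of all tested genes, 0.614% being lower. None of the 10 passed in sub against neg (1.19% of tested genes), although 1 had an unadjusted p under 0.05 (9.54% of tested genes), and edgeR and DESeq2 also called 0 (1.28% of the 16128 genes and 14.2% of the 11964 to which DESeq2 gave a p-value). In high against low 0 of 10 passed beside 0% of all genes with limma, 1 of the 10 (Bmp2) had an unadjusted p under 0.05 (4.24% of all), and edgeR and DESeq2 called 0 of the 10 (0.211% of the 16128 and 5.40% of the 11964 genes). In high against sub 0 of 10 passed beside 0.986%, with 3 at an unadjusted p under 0.05 (10.2% of all), 0 with edgeR (1.41% of all) and 1 with DESeq2 (12.4% of its 11964 genes). The F test called 2 of 10, Bmp2 and Bmpr2, beside 4.23%.

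The median log2 fold change of the 10 genes was -2.47 in low against neg and -1.56 in high against neg, where the median over all tested genes was 0.00 and 0.13. In high against low it was 1.34 for the 10 genes and 0.00 for all. Counting instead the genes whose libraries did not overlap, 4 of 10 were separated in high against neg (18.8% of all tested genes). Of these Bmp2, Bmpr2 and Smad6 were lower (3 of 10, beside 8.61%) and Id2 higher (1 of 10, beside 10.2%). In low against neg the same 3 genes were separated, all lower (8.52% lower and 16.9% in either direction among all genes). In sub against neg 2 of 10 were separated, Bmp2 and Id2, beside 9.68%. In low against sub Bmpr2, Acvrl1 and Smad6 were separated, all lower (3 of 10, beside 5.99% lower and 11.7% in either direction). In high against low 3 of 10 were separated beside 7.34%, and 2 of them, Id1 and Id2, were higher, beside 4.06%. In high against sub 4 of 10 were separated, Bmpr2, Acvrl1, Id1 and Id2, beside 13.1%.

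The wider pathway was read from 53 other genes listed by role, of which 41 passed the filter on low values, and 9 were at 0 in all 12 libraries, among them the antagonist Nog and the receptor Bmpr1b. In low against neg and in high against neg 3 of 41 passed, Atoh8 upward and Eng and Tcf4 downward, beside 4.69% of all tested genes in each. In sub against neg 1 of 41 passed (Atoh8, upward, beside 1.19% of all) and in high against sub 1 of 41 (Eng, downward, beside 0.986%). An unadjusted p under 0.05 was held by 14 of 41 in low against neg (16.0% of all) and 13 in high against neg (16.4%). It was held by 7 in sub against neg (9.54%) and 10 in high against sub (10.2%). In low against sub, 0 of 41 passed with limma, 7 had an unadjusted p under 0.05, and edgeR called 1 and DESeq2 5. Over all genes limma called 0.744%, 10.2% had an unadjusted p under 0.05, and edgeR called 1.11%, while DESeq2 called 13.3% of its 11964 genes. In high against low, 0 of 41 passed (0% of all genes) and 1 had an unadjusted p under 0.05 (4.24% of all). There, edgeR and DESeq2 called 1 each, beside 0.211% of the 16128 and 5.40% of the 11964 genes. Some of the 41, such as Hey1, got no adjusted p from DESeq2. The F test called 4 of 41 (Eng, Atoh8, Tcf4 and Crim1), beside 4.23% of all.

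**Figure D3:**
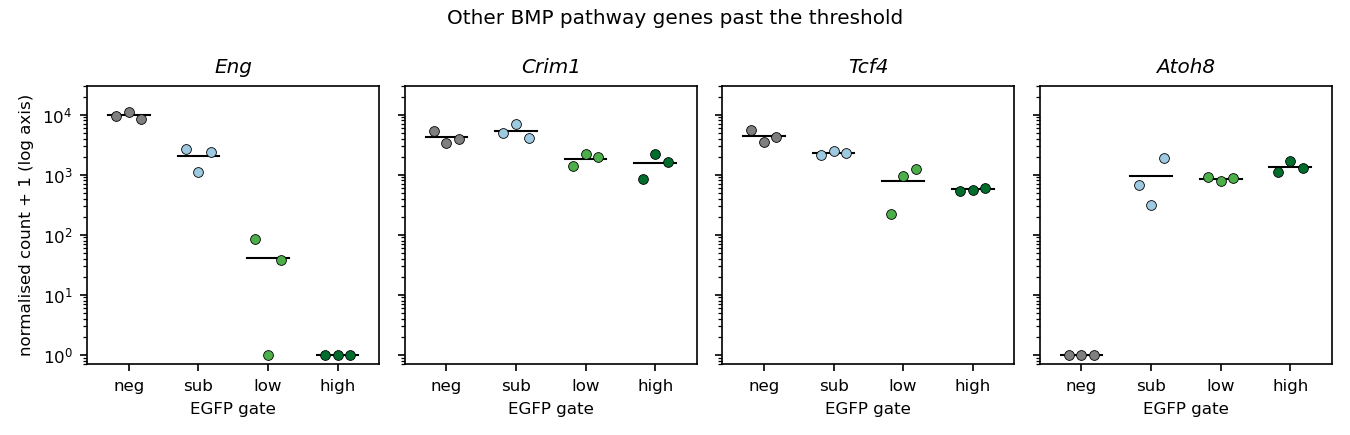
Normalised count + 1 on a log axis of the 4 other BMP pathway genes past the threshold in the F test, by EGFP gate, with 1 point per library (3 per gate) and a bar at the mean of the 3 normalised counts + 1. Eng goes from 8311 to 11277 in neg to 0 in all 3 high libraries, and Atoh8 is at 0 in all 3 neg libraries and between 774 and 1672 in low and high.

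Eng, the endothelial co-receptor endoglin that works with Acvrl1, had the highest mean over the 12 libraries of the other receptors and co-receptors listed, a rank it did not hold in low or high. Normalised counts of Eng were 9523, 11277 and 8311 in neg, 2704, 1103 and 2359 in sub, 82.4, 0 and 37.0 in low, and 0 in all high libraries. The neg libraries were above all sub libraries, and these above all low libraries. Against neg, Eng was 244-fold lower in low (log2 fold change -9.36 ± 1.90, limma adjusted p = 0.00618) and at least 3604-fold lower in high, with 3 reads per library as the floor (adjusted p = 0.000194). Such a floor covers counting error and not the spread between libraries. For low against neg the log2 fold change ranged from -10.61 (without low 1) to -7.42 (without low 2) when 1 library was left out. High was at least 763-fold lower than sub (adjusted p = 0.00623). In fits of only the 2 populations compared, low against neg and high against sub missed the threshold (0.0973 and 0.0996). Acvrl1, its partner, had 688 ± 507 (SD, n = 3) normalised counts in sub and 139.9 ± 168 in neg, so that the mean of Acvrl1 was higher in sub where that of Eng was lower. Neither gene passed in sub against neg (limma adjusted p = 0.719 for Eng and 0.703 for Acvrl1), and Eng did not pass in low against sub (0.105). The endothelial sums had the same order as Eng from neg to sub to low, and their part in its difference was not tested. Fpgs overlaps Eng on the other strand.

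The window before Eng, chr2:32646345-32646594 on the plus strand, is shown for its GTCTG letters, and that before Atoh8, chr6:72235578-72235827 on the minus strand, because its gene was higher where Eng was lower.
Eng: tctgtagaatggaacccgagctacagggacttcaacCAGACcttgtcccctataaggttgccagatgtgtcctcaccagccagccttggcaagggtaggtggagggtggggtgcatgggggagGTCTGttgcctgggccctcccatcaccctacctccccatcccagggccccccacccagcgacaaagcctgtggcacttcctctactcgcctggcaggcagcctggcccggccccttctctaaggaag
Atoh8: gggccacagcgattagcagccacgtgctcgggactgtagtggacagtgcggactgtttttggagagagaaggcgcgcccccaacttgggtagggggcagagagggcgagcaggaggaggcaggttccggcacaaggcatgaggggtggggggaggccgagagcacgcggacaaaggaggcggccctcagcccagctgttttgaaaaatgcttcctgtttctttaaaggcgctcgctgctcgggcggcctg
In Eng, GTCTG letters occur 214 and 127 bases before the start, and 42.2% of all promoter windows of 250 bases hold GTCTG. None of the 3 motifs was found in the Atoh8 window.

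Atoh8, a helix-loop-helix factor known as a BMP target in liver, was at 0 in all neg libraries. In normalised counts, Atoh8 had 662, 308 and 1862 in sub, 908, 774 and 879 in low, and 1089, 1672 and 1295 in high. Against neg, sub was at least 328-fold higher (limma adjusted p = 0.00167), low at least 296-fold higher (0.000701) and high at least 469-fold higher (0.000328), with 3 reads per library as the floor in neg. Without sub 3, the highest of its gate, the bound for sub was 168-fold. As for Eng, the floor behind these bounds covers counting error only. In fits of only the 2 populations compared, sub against neg and low against neg missed the threshold (0.580 and 0.0569). Biliary and hepatocyte marker sums were also higher in sub, low and high than in neg, and their part in the Atoh8 difference was not tested. Thus Atoh8 separated neg from all other gates, whereas Id1 had 875 normalised counts in 1 neg library and Id2 was above 0 in all 3.

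Tcf4, an E protein that ID proteins bind, had normalised counts of 5627, 3548 and 4180.0 in neg, 2138, 2466 and 2336 in sub, 219, 933 and 1243 in low, and 543, 563 and 608 in high. It was lower than in neg in low (log2 fold change -2.78 ± 0.70, limma adjusted p = 0.0259) and in high (-2.93 ± 0.70, adjusted p = 0.0181). Id2 had its highest libraries in high, where Tcf4 was between 543 and 608. The call in low was lost without any 1 of the neg libraries or low 1 (adjusted p 0.0508 to 0.0904), and that in high without neg 1, neg 3 or any 1 of the high libraries (0.0511 to 0.0727). Leaving out 1 library gave log2 fold changes of -3.27 to -2.02 (without low 1) for low against neg. The F call of Tcf4 was lost without any 1 of the neg or high libraries (0.0560 to 0.103) and without a variance trend (0.286). The call in low was also lost with edgeR (0.0680), without a variance trend (0.187) and in the fit of 2 populations (0.184), and that in high without a trend (0.157).

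Crim1, a membrane protein that holds back BMPs and the listed antagonist with the highest mean over the 12 libraries, passed the F test (adjusted p = 0.0470) and none of the 6 contrasts. Its normalised counts were 5414, 3306 and 3998 in neg, 4875, 6921 and 4153 in sub, 1380.4, 2185 and 1959 in low, and 837, 2172 and 1656 in high. As with Bmpr2, all low and high libraries were below all neg and sub libraries. This F call was lost without any 1 library other than high 2 (adjusted p 0.0524 to 0.118), with the replicate number as a block (0.0576), with edgeR (0.173), with quantile normalisation (0.0559), without a filter (0.0787) and without a variance trend (0.626).

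Bmp7, Smad4 and Skil are named for the highest mean over the 12 libraries within their role, and other genes of the role were higher in some gates. Bmp7 is a further ligand. It was at 0 in all neg libraries, had 436, 0 and 0 normalised counts in sub, 17.8, 227 and 220.3 in low, and 328, 431 and 475 in high, and high against neg missed the threshold (log2 fold change 8.67 ± 2.65, limma adjusted p = 0.0700). This contrast passed in 3 of 24 alternatives, with adjusted p from 1.89e-15 with DESeq2 to 0.194 with edgeR. Its log2 fold change ranged from 6.36 to 23.45 over them. All neg libraries were at 0, so the size of this difference has no measured neg value behind it. The high libraries were above all neg and low libraries for Bmp7 and overlapped sub. Smad4, the shared partner of the signalling SMADs, had 444 to 1295 normalised counts in neg and 585 to 1770.4 in high, and its adjusted p ranged from 0.668 to 1. Skil, a nuclear co-repressor of SMADs, had 2997 to 4235 in neg, 1076 to 4692 in sub, 5019.7 to 7450.5 in low and 4713 to 7105 in high. Its low and high libraries were above all neg and sub libraries, and low against sub gave a log2 fold change of 1.15 ± 0.45 with an adjusted p of 0.348. Over the alternatives this log2 fold change ranged from 0.50 to 1.56.

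**Figure D4:**
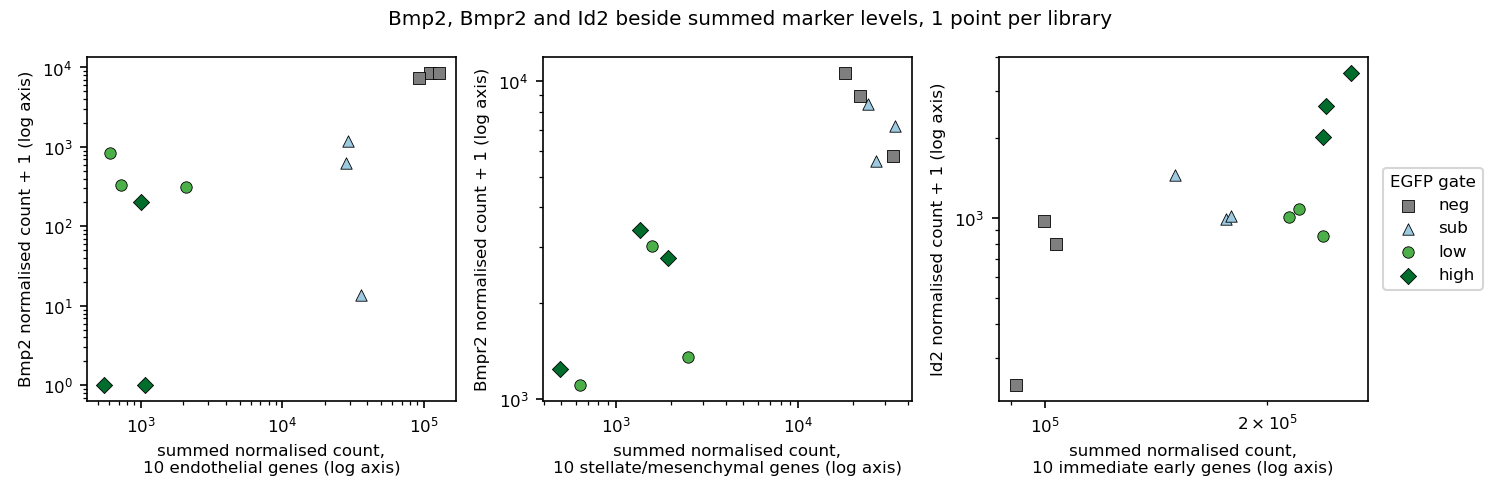
Normalised count + 1 of Bmp2, Bmpr2 and Id2 against the summed normalised count of 10 endothelial, 10 stellate or mesenchymal and 10 immediate early genes, with 1 point per library, a symbol per EGFP gate and log axes. Bmp2 is highest in the 3 neg libraries with endothelial sums from 92598 to 128628, Bmpr2 is split between libraries with mesenchymal sums of at least 18098 and of at most 2491, and Id2 is highest in the 3 high libraries.

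The genes whose log2 values were most like those of each of the 10 genes over the 12 libraries were found among 9605 genes with a mean of at least 100, by Pearson correlation, as a description without a test. The libraries share gates, and a correlation reflects the gates as well as single libraries. For Bmp2 they included Cept1 (r = 0.90) and Ttc28 (0.90), and for Bmpr2 they were Plxna4 (0.97), Ifi203 (0.95) and Klhl5 (0.94). For Bmp6 they were Tubb5, Gm42553 and Fam174b (0.97 each). Acvrl1 was most like Mmrn1 (0.93), Ccbe1 (0.92) and Rftn1 (0.89). Id1 had Aacs (0.95), Rab3gap2 (0.94) and Acad9 (0.94), Id2 had Huwe1 (0.89), Ube2z (0.87) and Spred2 (0.86), and Id3 had Nfyb (0.96), Gnai3 (0.93) and Cbfb (0.92). Smad6 was most like Ephb4 (0.89), Zfp319 (0.88) and Macf1 (0.88), and Smad7 like Grb2 (0.91), Rufy1 (0.91) and Lyst (0.90). For Bmp4, whose mean was under 100, none were sought.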

How the data were processed

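Sorted liver cell populations were profiled by total RNA sequencing (SMARTer Stranded Pico v2 chemistry, per the labels' protocols). The signal in the table deposited by the authors is a normalised count. The submitters' processing notes name Salmon, DESeq2 1.26.0 and mm10. The use of strand in counting is not given in the sources used here. Every value was a whole multiple of 1 step per library (tolerance 0.01 read), and the product of step and recomputed median-of-ratios factor was 1 in each. Floors of 3 reads, and the bounds on fold differences taken from them, cover counting error only. Values after ± are SEs of the limma fit or SDs of 3 libraries, and both reflect the spread between libraries. Pairs of replicates within a gate differed by more than counting error, with chi-square per degree of freedom from 173 to 415.

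Genes with a mean of at least 10 were tested (16128 genes) on log2(normalised count + 1) with limma 3.58.1 in R 4.3.3 (lmFit, eBayes with trend) over the 12 libraries, with no term but population, two-sided, Benjamini-Hochberg at 0.05. Every adjusted p is from this fit unless another tool is named. It covers 6 contrasts and an F test. Log2 fold changes had a median SE of 2.35, which limits what sparse genes can show.

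The 10 genes, the pathway and marker lists and the tests were chosen with earlier results of these data known. Named pathway genes were those past the threshold and, in each role, the gene with the highest mean over the 12 libraries. Genes alike in pattern were the 3 with the highest Pearson r, of which 1 is not reported here. Alternatives were pseudocounts of 0.5 and 5, other filters and scalings, other fit options, each library left out, and edgeR 4.0.16 and DESeq2 1.42.0 on recovered reads. Positions are from GENCODE M21. The scripts were tested on simulated data.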

Additional observations from a re-analysis of the deposited data

How the results depend on the processing

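Over 24 alternatives the call of Bmp2 in high against neg held in 23, that of Bmpr2 in low against neg in 22, in high against neg in 17 and in low against sub in 10, and the direction of each was kept. The number of the 10 genes called in low against sub was 0 (from 1) without a filter, with the replicate block, without a variance trend, with array weights and in a fit of only the 2 populations. In low against neg it was 0 without the trend and 2 with DESeq2 (from 1), which called 19.7% of its 11964 genes, and in the fit of 2 populations it stayed 1 with Bmp2 (0.0299) in place of Bmpr2 (0.120). In high against neg it was 1 without a filter, without the trend and with edgeR, 0 in the fit of 2 populations and 5 with DESeq2 (from 2), which called 18.9% of its 11964 genes there. In high against sub it was 1 with DESeq2 (from 0), and in the F test 1 without a filter and 0 without the trend (from 2). Leaving out 1 library gave 0 to 1 in low against sub, 1 to 2 in high against neg and 1 to 2 in the F test. The cause was not tested.

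Of the 41 other pathway genes, sub against neg had 2 with a pseudocount of 5, 0 in the fit of 2 populations and 4 with DESeq2 (from 1). Low against sub had 1 with a pseudocount of 5, 1 with edgeR and 5 with DESeq2 (from 0), and high against low 1 with edgeR and 1 with DESeq2 (from 0). Low against neg had 0 in the fit of 2 populations and 6 with DESeq2 (from 3). High against neg had 5 with a mean of at least 100 and 7 with DESeq2 (from 3), and high against sub 2, 0 and 6 with a mean of at least 100, the fit of 2 populations and DESeq2 (from 1). DESeq2 called 14.2%, 13.3%, 5.40%, 19.7%, 18.9% and 12.4% of its 11964 genes in these 6 contrasts, in the order given. Its counts here come from fewer than the 41 genes, since some, such as Hey1, got no adjusted p from it. Leaving out 1 library gave 1 to 2 in sub against neg and 0 to 1 in low against sub.

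Log2 fold changes that changed sign passed the threshold in neither setting. With edgeR and DESeq2 they were -0.30 and -0.31 for Bmp2 in low against sub, -0.71 and -0.75 for Id1 in low against neg, 0.22 and 0.16 for Id3 in sub against neg, -0.32 and -0.39 for Id3 in high against sub, 0.01 and 0.01 for Smad6 in high against low, and -0.20 and -0.26 for Smad7 in high against sub. Quantile normalisation gave 0.07 for Bmp6 in high against sub and 0.02 for Id3 in high against neg. Leaving out 1 library gave -0.96 to 2.27 for Bmp2 and -3.69 to 1.25 for Id3 and -1.75 to 0.70 for Smad7 in low against sub. In high against sub it gave -2.59 to 1.27 for Bmp4, -0.59 to 0.16 for Bmp6, -1.08 to 2.34 for Id3 and -0.52 to 1.44 for Smad7. In high against low it gave -0.10 to 5.09 for Bmp6, -0.21 to 4.50 for Id3, -0.93 to 0.28 for Smad6 and -0.22 to 2.02 for Smad7. Against neg it gave -4.08 to 1.23 (sub) and -1.25 to 3.64 (low) for Id1, and -2.51 to 0.91 (sub), -4.68 to 0.03 (low) and -0.77 to 0.35 (high) for Id3. Quantile normalisation took the median of all genes from 0.13 to 0.00 in high against neg and from 0.20 to 0.04 in high against sub.

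Libraries with the same replicate number share a tag in their column names, whose meaning is not given, so whether they are paired is not known. Their deviations correlated at -0.016 to 0.027 over 18 pairs, against -0.045 to 0.023 over 36 pairs of different numbers. Of the 12 libraries, 5 correlated best with their own number in every other population. That count was not set beside one for unpaired libraries, so it does not decide whether the libraries are paired. With the replicate block the adjusted p of Bmpr2 in low against sub was 0.0510 and that of Crim1 in the F test 0.0576, and no other call of a named gene was lost. SEs of the 10 genes ranged from 0.45 (Bmpr2) to 2.75 (Acvrl1).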

Other observations

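Genes of the hepatic iron axis, which BMP2 and BMP6 feed, were looked at after their values were seen. Tmprss6, a hepatocyte protease that dampens BMP signalling to hepcidin, had 0.691, 0 and 0 normalised counts in neg, 301, 428 and 466 in sub, 180.3, 0 and 305 in low, and 414, 207 and 320.2 in high. The log2 fold change was 8.36 ± 2.40 in sub against neg (limma adjusted p = 0.126) and 7.99 ± 2.40 in high against neg (0.0652), so neither passed. Hfe, which senses iron in hepatocytes, had a mean of 465 normalised counts in neg, against 190.0 in sub, 27.2 in the low gate and 118 in high, with 1 library or more at 0 in neg, low and high, and its adjusted p ranged from 0.589 to 1. Tfr2, a transferrin receptor of hepatocytes, was above 0 in 1 library only, at 0.966. Hamp, which encodes hepcidin, was above 0 in only 3 libraries, with 6.68 and 253 normalised counts in low and 61.7 in high. Slc40a1, the iron exporter ferroportin, had 1028 to 1814 in neg, 1069 to 1427 in sub, 56.4 to 2111 in low and 445 to 832 in high, and its adjusted p was 0.679 for high against neg and 0.758 for high against sub.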
